A study of Schizosaccharomyces pombe with 13 samples.

Results

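Core histones wrap DNA into nucleosomes, and Cnp1, the fission yeast CENP-A, takes the place of histone H3 at centromeres. The messages of 10 genes for these proteins in Schizosaccharomyces pombe are described here, taken by identifier from the 5747 entries of the authors' sense table and the 1561 entries of their antisense table. They are the H3 and H4 genes of 3 divergent pairs, hht1 (SPAC1834.04) with hhf1 (SPAC1834.03c), hht2 (SPBC8D2.04) with hhf2 (SPBC8D2.03c) and hht3 (SPBC1105.11c) with hhf3 (SPBC1105.12). The others are the H2A genes hta1 (SPCC622.08c) and hta2 (SPAC19G12.06c), the H2B gene htb1 (SPCC622.09) and the centromeric gene cnp1 (SPBC1105.17). All 10 were found in the sense table and 1, htb1, in the antisense table. The gene pht1 of the H2A variant H2A.Z, deleted in some of the strains, is not counted among them.

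The libraries came from haploid ED668 cells of 4 genotypes. The xap5 deletion (3 libraries) is h+ with SPCC1020.12c replaced by KanMx4 and is strain BG4186 of the Bioneer collection. The pht1 deletion (3 libraries) is h- with SPBC11B10.10c replaced by NatMx4. The double deletion (3 libraries) is h- and carries both replacements. Wild type (4 libraries) is h+. Every strain has the alleles leu1-32, ura4-D18 and ade6-M216. Precultures in YES medium at 30 °C were followed by growth to exponential phase in EMM50 medium at 37 °C. Ribosomal RNA was depleted, and randomly primed strand-specific libraries were read as single reads of 100 bases with a stated mean of 11.8 M reads per library. Each value below is a deposited log2 fold of a deletion over wild type, computed by the authors from these libraries, and no value per library was used here. All 3 comparisons share the same wild type libraries. Mating type and genotype cannot be told apart in the pht1 and double deletion, and the labels do not say whether the libraries of a genotype came from separate cultures. The entry of pht1 itself had deposited log2 folds of −2.13 (adjusted p = 4.64e-06) where pht1 alone was deleted and −1.55 (adjusted p = 1.74e-10) where both genes were, the direction the labels call for.

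In growing cells most core histone genes are transcribed in S phase, when new DNA has to be packed. In fission yeast the GATA-type factor Ams2 and the Myb-domain protein Teb1 act at histone promoters, which carry a box of the letters AACCCT, while the HIRA complex holds histone genes down outside S phase. Deposition of H3-H4 relies on CAF-1, Asf1 and HIRA, that of H2A-H2B on Nap1 and FACT, and that of CENP-A on Scm3, Sim3 and the Mis16-Mis18 group. H2A.Z replaces H2A in nucleosomes next to gene starts.

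The sequences between the start sites of divergent partners are shown because both genes of a pair lie next to the same stretch of DNA while their messages did not always move together. They were read from the RefSeq genome (ASM294v3), plus strand, between the annotated transcript starts, and each match to AACCCT or its reverse AGGGTT is in capitals. The gene named first reads leftwards and the second rightwards.
hhf1-hht1, chrI:4699600-4699731: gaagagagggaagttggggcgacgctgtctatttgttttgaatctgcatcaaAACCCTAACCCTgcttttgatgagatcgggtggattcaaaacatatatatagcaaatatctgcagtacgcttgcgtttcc
hhf2-hht2, chrII:1364985-1365118: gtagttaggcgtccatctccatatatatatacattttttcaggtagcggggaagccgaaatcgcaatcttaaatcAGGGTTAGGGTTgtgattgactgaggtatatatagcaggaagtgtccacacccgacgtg
hht3-hhf3, chrII:3529566-3529766: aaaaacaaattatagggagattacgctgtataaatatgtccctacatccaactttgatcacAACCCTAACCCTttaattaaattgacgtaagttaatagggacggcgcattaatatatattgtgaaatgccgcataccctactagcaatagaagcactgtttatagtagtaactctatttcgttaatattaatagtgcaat
hta1-htb1, chrIII:1412182-1412358: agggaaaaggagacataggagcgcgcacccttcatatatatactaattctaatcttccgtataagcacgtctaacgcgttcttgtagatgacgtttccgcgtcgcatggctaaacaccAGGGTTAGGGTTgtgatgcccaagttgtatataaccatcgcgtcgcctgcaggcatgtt

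The genes hta2 and cnp1 have no divergent histone partner, so the 120 bases before their starts are shown, each on the strand of its gene (hta2 minus, cnp1 plus). The first holds the same repeat and the second does not.
hta2, chrI:4053319-4053438: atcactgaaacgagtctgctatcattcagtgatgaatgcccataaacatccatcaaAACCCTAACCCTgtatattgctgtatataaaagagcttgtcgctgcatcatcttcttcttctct
cnp1, chrII:3538384-3538503: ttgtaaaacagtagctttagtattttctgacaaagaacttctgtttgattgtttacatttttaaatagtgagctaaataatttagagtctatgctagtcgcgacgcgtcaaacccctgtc

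AACCCT stood as 2 copies in a row, AACCCTAACCCT on either strand, in 5 of these 6 regions, which serve 9 of the 10 genes. Over all protein-coding genes, a window of 250 bases before and 50 bases after the start held the double copy in 20 of 5112 cases (0.391%) and a single AACCCT in 496 (9.70%). The double copy was searched for after these sequences had been seen. Its nearest base lay 48 bases before the starts of hht2 and htb1, 53 bases before those of hhf1 and hta2, 62 before hht3, 69 before hht1, 76 before hhf2, 119 before hta1 and 129 before hhf3. The 4 letters GATA, on either strand, occurred in the windows of 9 of the 10 genes and in 92.8% of all windows. These matches are descriptions of the sequence, and the search counted the single copy also inside the double one.

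The 3 H3 genes encode the same protein of 136 residues and the 3 H4 genes the same protein of 103 residues, so only the RNA tells the copies apart. Their coding sequences of 411 and 312 bases were 88.3% to 92.7% identical among the H3 genes and 91.3% to 93.3% among the H4 genes. None of the windows of 100 bases in the 10 reference transcripts occurred a second time in the genome. The closest coding stretch of read length was between hht1 and hht3, with 2 differences in 100 bases, and every other pair of H3 or of H4 genes differed by 4 or more. Differences between the H2A genes hta1 and hta2 were not counted in this way, because their coding sequences of 399 and 396 bases differ in length. How the authors placed reads with more than 1 possible origin is not stated in the sources used here.

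Both genes of the H3-H4 pair hht3-hhf3 rose in all 3 comparisons. The H4 gene hhf3 had the highest deposited log2 fold of the 10 genes in each of them, though in the pht1 deletion hhf3 and hht3 both rounded to 0.39. In the xap5 deletion, 4 of the 10 histone genes rose and none fell at a deposited adjusted p under 0.05, against 21.1% of all sense entries higher and 20.6% lower. In the pht1 deletion 2 rose and 1 fell, against 13.5% higher and 11.1% lower over all entries. In the double deletion 4 rose and 3 fell, against 30.5% higher and 34.3% lower. The median deposited log2 fold of the 10 genes was 0.24, 0.24 and 0.14 for the loss of xap5, of pht1 and of both, beside −0.01, −0.02 and −0.05 for all sense entries. Stricter rules took away the falls in the double deletion. At an adjusted p under 0.01, 4 genes were higher and none lower in the xap5 deletion (16.3% and 15.2% of all sense entries), 1 and 1 in the pht1 deletion (8.60% and 5.76%), and 4 and none in the double deletion (26.8% and 29.1%). With a minimum of 1.5-fold added to the 0.05 threshold, 3 were higher and none lower in the xap5 deletion (14.4% and 6.75% of all entries), none and 1 in the pht1 deletion (8.49% and 2.37%), and 4 and none in the double deletion (22.9% and 19.1%). At an unadjusted p under 0.01 the counts were 4 and none, 2 and 1, and 4 and none, against 19.0% and 18.3%, 12.7% and 10.0%, and 28.2% and 30.5% of all entries. At the 0.05 threshold the share of the 10 genes called was thus close to that of all genes in each strain. Because the RNA came from whole cultures, a different share of cells in S phase and a different amount of RNA per cell cannot be told apart.

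**Figure D1:**
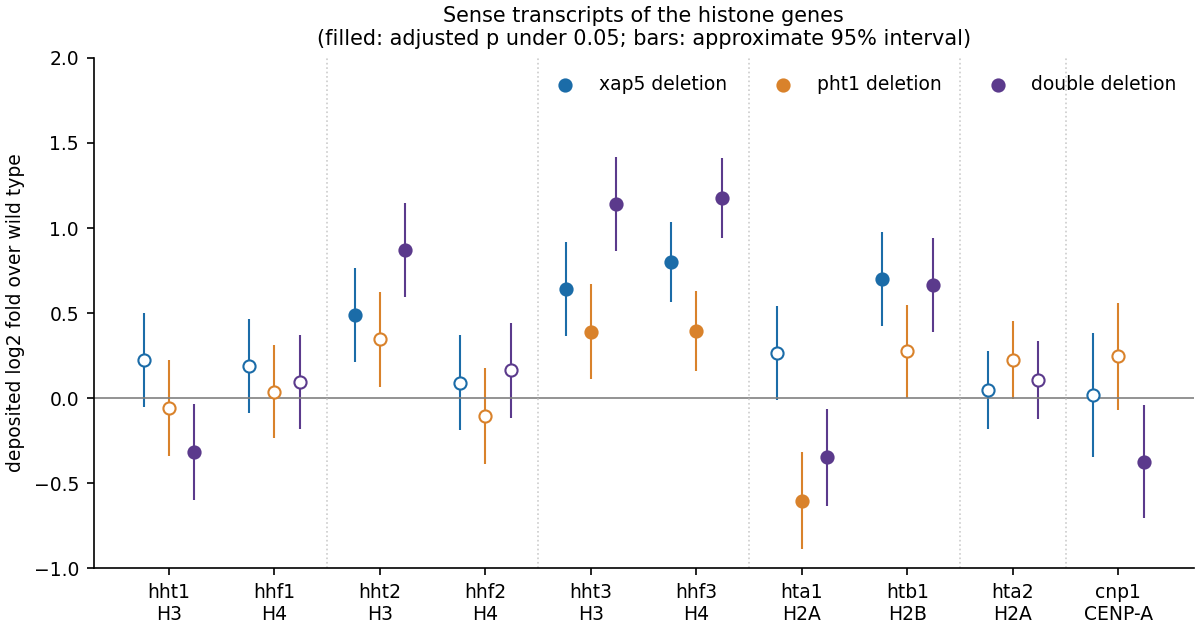
Deposited log2 folds over wild type (vertical axis) of the 10 histone genes for the xap5, pht1 and double deletions. Points are the authors' values, filled where the adjusted p is under 0.05, and bars are approximate 95% intervals; hht3 and hhf3 lie above 0 in all 3 comparisons, and hta1 lies below 0 in the pht1 deletion (−0.60) and the double deletion (−0.35).

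The H4 gene hhf3 had a deposited log2 fold of 0.80 in the xap5 deletion, or 1.74-fold (adjusted p = 4.65e-10). The approximate 95% interval of that log2 fold, worked back from the fold and its unadjusted p-value, was 0.56 to 1.03. In the pht1 deletion hhf3 rose by a deposited log2 fold of 0.39 (interval 0.16 to 0.63, adjusted p = 0.00743) and in the double deletion by 1.18, or 2.26-fold (interval 0.94 to 1.41, adjusted p = 1.18e-21). The rise in the double deletion was exceeded by 12.7% of all sense entries, so it was not among the extreme changes of that strain.

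Its divergent partner hht3, an H3 gene, moved alongside. The deposited log2 fold of hht3 was 0.64 in the xap5 deletion (interval 0.37 to 0.92, adjusted p = 3.75e-05) and 0.39 in the pht1 deletion (interval 0.11 to 0.67, adjusted p = 0.0283). In the double deletion hht3 rose by 1.14 on the deposited log2 scale, 2.20-fold (interval 0.86 to 1.42, adjusted p = 7.45e-15). The rise of hht3 in the pht1 deletion did not pass an adjusted p under 0.01. H3 minus H4 within this pair came to −0.16, −0.00 and −0.04 on the log2 scale for the loss of xap5, of pht1 and of both. The difference was at most 0.16 in size in each strain, and no error of a difference between genes can be derived from the deposited tables.

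In the pair hht2-hhf2 the H3 gene rose in the xap5 and double deletion, and the H4 gene passed the threshold in no strain. The deposited log2 fold of hht2 was 0.49 in the xap5 deletion (interval 0.21 to 0.77, adjusted p = 0.00212) and 0.87 in the double deletion, 1.83-fold (interval 0.59 to 1.15, adjusted p = 3.2e-09). Without pht1 its deposited value of 0.34 just missed the threshold (interval 0.07 to 0.62, adjusted p = 0.0554). The interval there excludes 0 because it rests on the p-value before adjustment. The H4 gene hhf2, which starts 134 bases away on the other strand, had deposited log2 folds of 0.09 in the xap5 deletion (interval −0.19 to 0.37), −0.11 in the pht1 deletion (−0.39 to 0.18) and 0.16 in the double deletion (−0.11 to 0.44), with adjusted p-values of 0.647, 0.628 and 0.309. These intervals leave room for a rise of hhf2, but their upper bounds lie below the deposited fold of hht2 in the xap5 and double deletion. The intervals of hhf2 and hht2 still overlap in the xap5 deletion, and they do not in the double deletion. H3 minus H4 in this pair was 0.40, 0.45 and 0.71 for the loss of xap5, of pht1 and of both.

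In the pair hht1-hhf1, 1 of the 6 deposited values passed the threshold. The H3 gene hht1 in the double deletion fell by 0.32 on the log2 scale (interval −0.60 to −0.04, deposited adjusted p = 0.042), a call that did not pass an adjusted p under 0.01. In the xap5 deletion its deposited log2 fold was 0.22 (interval −0.05 to 0.50, adjusted p = 0.202) and in the pht1 deletion −0.06 (−0.34 to 0.23, adjusted p = 0.82). The H4 gene hhf1 had deposited log2 folds of 0.19, 0.04 and 0.10 for the loss of xap5, of pht1 and of both, with adjusted p-values of 0.299, 0.878 and 0.559. Its approximate intervals reached from −0.09 to 0.46, from −0.23 to 0.31 and from −0.18 to 0.37. A rise of hhf1 as large as the deposited log2 fold of hhf3 in the same strain lay outside the interval in all 3 strains. That leaves out the error of hhf3, and in the pht1 deletion the intervals of hhf1 and hhf3 overlap.

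Set side by side within a strain, the copies of H3 ran in different directions in the double deletion, where hht3 and hht2 rose and hht1 fell. There the deposited log2 folds of the H3 genes hht3, hht2 and hht1 were 1.14, 0.87 and −0.32, so hht3 minus hht1 was 1.46. In the xap5 deletion the same difference was 0.42, and in the pht1 deletion 0.45. Among the H4 genes, hhf3 minus hhf1 was 1.08 in the double deletion, 0.61 in the xap5 deletion and 0.36 in the pht1 deletion. By the deposited values hht3 stood highest within each strain, hht2 next and hht1 lowest, but the intervals of hht3 and hht2 overlap in each. In both single deletions the interval of hht1 also overlaps those of hht3 and hht2, and it lies apart from them only in the double deletion. The strains share their wild type libraries. These differences have no error of their own and were not tested.

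**Figure D2:**
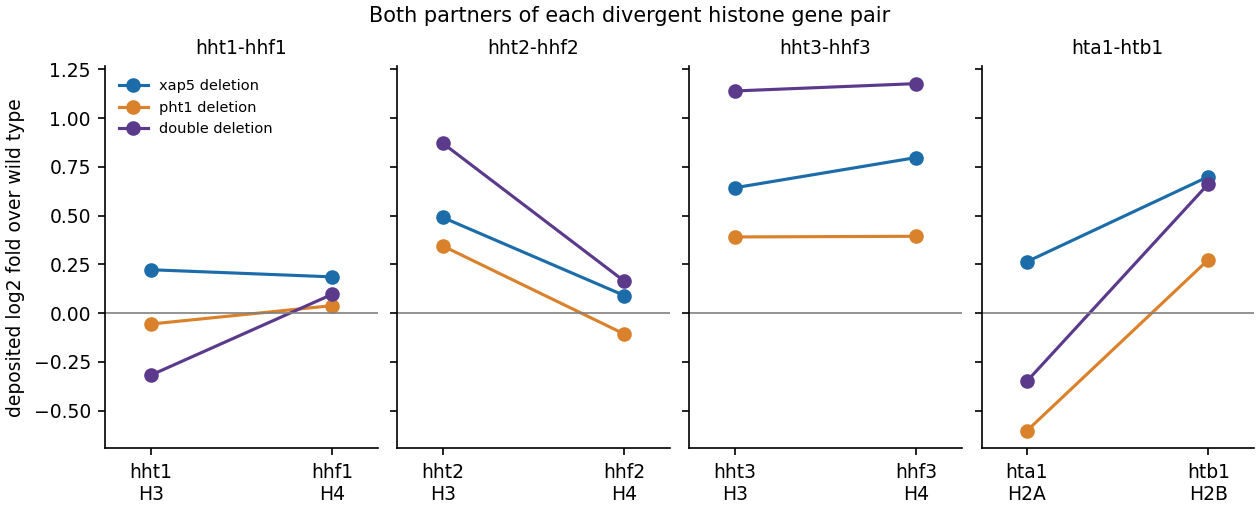
Deposited log2 folds over wild type (vertical axis) of the 2 partners of each divergent pair, joined by a line for each deletion. The lines of hht3-hhf3 are nearly level, those of hht2-hhf2 slope down towards the H4 gene, and those of hta1-htb1 slope up towards the H2B gene, by 0.44, 0.88 and 1.01 for the loss of xap5, of pht1 and of both.

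Among the H2A genes, hta1 fell where pht1 was deleted and hta2 passed the threshold in no comparison. The deposited log2 fold of hta1 was −0.60 in the pht1 deletion (interval −0.89 to −0.32, adjusted p = 4.22e-04), and 97.4% of all sense entries had a higher fold there. In the double deletion hta1 fell by 0.35 (interval −0.63 to −0.07, deposited adjusted p = 0.0255), which did not pass an adjusted p under 0.01. There 68.2% of all sense entries had a higher fold than hta1, so its fall was not among the extreme changes of that strain. In the xap5 deletion its deposited value was 0.26 (interval −0.01 to 0.54, adjusted p = 0.124), so the sign there was opposite to that in the strains without pht1.

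The second H2A gene, hta2, lies on chromosome I without a divergent histone partner. It encodes a protein of nearly the same length from 396 coding bases, against 399 for hta1. Its deposited log2 folds were 0.05, 0.22 and 0.11 for the loss of xap5, of pht1 and of both, with adjusted p-values of 0.786, 0.15 and 0.429. The approximate intervals of hta2 were −0.18 to 0.28, −0.01 to 0.45 and −0.12 to 0.34, so a fall of the size of hta1 in the pht1 deletion lay outside that of hta2. On the log2 scale hta1 minus hta2 came to 0.22 in the xap5 deletion, −0.83 with pht1 deleted and −0.46 with both deleted. The strains without H2A.Z thus had less RNA of the H2A gene hta1 relative to wild type, and no call for hta2.

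The sole H2B gene, htb1, shares its upstream region with hta1 and rose in the strains without xap5. Its deposited log2 fold was 0.70 in the xap5 deletion, 1.62-fold (interval 0.42 to 0.98, adjusted p = 5.28e-06), and 0.66 in the double deletion, 1.58-fold (interval 0.39 to 0.94, adjusted p = 7.43e-06). Without pht1 alone it was 0.27 (interval −0.00 to 0.55, adjusted p = 0.14). The partners hta1 and htb1 therefore differed in direction in the double deletion, where hta1 minus htb1 was −1.01 on the log2 scale. In the pht1 deletion the difference was −0.88 and in the xap5 deletion −0.44.

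The centromeric gene cnp1, the one without the AACCCT repeat before its start, had the smallest deposited log2 fold of the 10 genes in the xap5 deletion. Its value there was 0.02, with an interval of −0.35 to 0.38 (adjusted p = 0.956). Where pht1 was deleted it was 0.25 (interval −0.07 to 0.56, adjusted p = 0.261). In the double deletion cnp1 fell by 0.37 (interval −0.71 to −0.04, deposited adjusted p = 0.0436), which did not pass an adjusted p under 0.01. The reading of cnp1 depends on strand, because the gene pth3 lies wholly inside its reference span on the other strand, and adi1 overlaps its end on the same strand. In the double deletion pth3 rose by a deposited log2 fold of 0.84 (adjusted p = 1.08e-05) and adi1 fell by 0.69 (adjusted p = 2.11e-07). In the xap5 deletion pth3 also rose, by 0.69 (deposited adjusted p = 7.94e-04), and adi1 fell by 0.30 (adjusted p = 0.0416). In the pht1 deletion pth3 had 0.19 (deposited adjusted p = 0.498) and adi1 fell by 0.40 (adjusted p = 0.0088). In neither single deletion was cnp1 called. Their part in the value of cnp1 was not tested.

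The double deletion stood nearer to the sum of the single deletions for some genes than for others. For hht3, hhf3, hht2 and hta1 the deposited log2 folds of the double deletion were 1.14, 1.18, 0.87 and −0.35, and the sums of the single deletion folds were 1.03, 1.19, 0.84 and −0.34. For these genes the double deletion differed from the sum by 0.11, −0.02, 0.04 and −0.01. The double deletion lay below the sum by more for cnp1 (−0.64), hht1 (−0.48) and htb1 (−0.31), while hhf1, hhf2 and hta2 differed from it by −0.13, 0.18 and −0.16. Both the double deletion fold and the sum contain the same wild type libraries, and none of these differences has an error or was tested.

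Antisense transcription at the histone loci was listed at 3 of the 10 genes, as antisense signal at htb1 and as annotated antisense RNAs opposite hta1 and hhf3. The antisense table lists chosen features: 33.0%, 42.6% and 76.7% of its entries were higher for the loss of xap5, of pht1 and of both at an adjusted p under 0.05, so a call there is common by construction. The median deposited log2 fold of its entries was 0.71, 0.82 and 1.44 for the loss of xap5, of pht1 and of both. Signal antisense to htb1 had deposited log2 folds of 2.09 in the xap5 deletion (interval 1.13 to 3.05, adjusted p = 7.68e-04) and 1.81 in the pht1 deletion (interval 0.87 to 2.74, adjusted p = 0.00308). In the double deletion it was 1.08 and did not pass (interval 0.08 to 2.07, adjusted p = 0.0972). Relative to the median of the antisense table these values became 1.38, 0.99 and −0.36, so the sign in the double deletion turned. The end of htb1 overlaps sec5, an exocyst gene on the other strand, in the reference. The sense fold of sec5 was −0.07, 0.24 and 0.23 in the deposited table, with adjusted p-values of 0.704, 0.137 and 0.0943. The part of sec5 reads in the signal antisense to htb1 was not tested.

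Opposite hta1 lies SPNCRNA.1194, a predicted antisense RNA that covers the whole of hta1 and ends at the start of htb1. Its deposited log2 fold was 0.67 in the xap5 deletion (adjusted p = 0.0213), 0.66 in the pht1 deletion (adjusted p = 0.0338) and 1.75 in the double deletion (adjusted p = 1.31e-12). In the strains where hta1 fell, this RNA on the other strand thus rose, and it rose also in the xap5 deletion, where hta1 was not called. Its folds in both single deletions lay below the median of the antisense table. SPNCRNA.1611 covers hhf3 from the other strand in the same manner. It rose by a deposited log2 fold of 1.76 in the xap5 deletion (adjusted p = 1.48e-06) and 2.84 in the double deletion (adjusted p = 1.14e-17), and had 0.34 in the pht1 deletion (adjusted p = 0.547). At the hhf3 locus both strands thus rose in the xap5 and double deletion, while in the pht1 deletion hhf3 was called and the RNA opposite it was not. SPNCRNA.1432, a predicted RNA at the far end of hhf2 on the same strand, rose in the pht1 deletion by a deposited log2 fold of 0.88 (adjusted p = 2.01e-04), where hhf2 had −0.11.

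**Figure D3:**
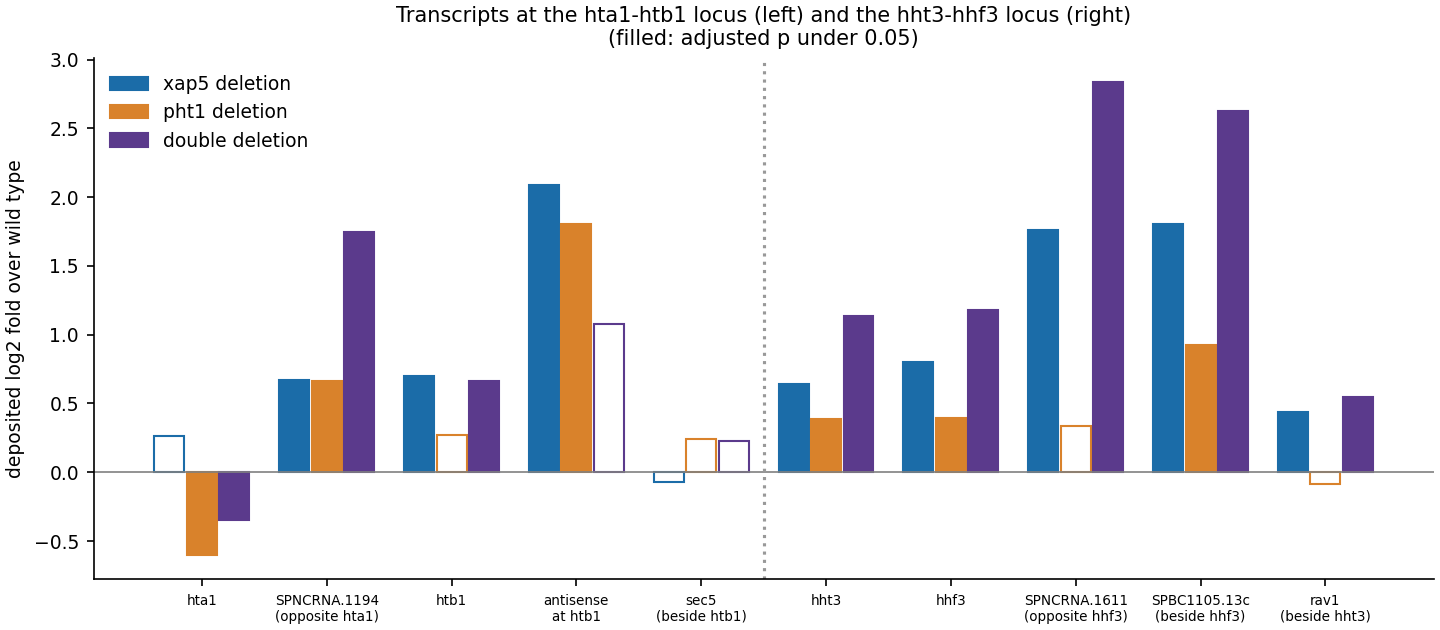
Deposited log2 folds over wild type (vertical axis) of transcripts at the hta1-htb1 and hht3-hhf3 loci, with bars from 0 for the xap5, pht1 and double deletion, filled where the adjusted p is under 0.05. The RNA opposite hta1 reaches 1.75 in the double deletion while hta1 is at −0.35, and the RNA opposite hhf3 reaches 2.84 while hhf3 is at 1.18.

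Of the genes next to the histone loci, both of those beside hht3-hhf3 rose in the xap5 and double deletion, and SPBC1105.13c rose also in the pht1 deletion. On the hhf3 side the next protein-coding gene, SPBC1105.13c, rose by deposited log2 folds of 1.80, 0.92 and 2.62 for the loss of xap5, of pht1 and of both (adjusted p-values 9.25e-19, 9.72e-05 and 8.54e-41), more than hhf3 in each. On the hht3 side rav1, a subunit gene of the RAVE complex, rose by 0.44 in the xap5 deletion (deposited adjusted p = 0.0015) and 0.55 in the double deletion (adjusted p = 1.98e-05). Its value in the pht1 deletion was −0.08. The reference transcripts of rav1 and hht3 overlap at their ends on opposite strands. Signal antisense to rav1, on the strand of hht3, had deposited log2 folds of 0.92, 0.98 and 1.90 for the loss of xap5, of pht1 and of both. The adjusted p-values were 0.02, 0.0074 and 4.77e-11, and the medians of the antisense table were 0.71, 0.82 and 1.44. Any link between this signal and the hht3 values was not tested.

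Around hht1-hhf1, the aromatic amino acid synthesis gene aro1 in the xap5 deletion fell by 0.44 (deposited adjusted p = 0.00671) and the mannosyltransferase gene alg9 in the double deletion fell by 0.83 (adjusted p = 8.77e-11). On the hhf2 side, vps68 had deposited log2 folds of 0.12, −0.10 and −0.09 for the loss of xap5, of pht1 and of both, none of them called. Beside hht2, sfi1 in the double deletion fell by 0.45 (deposited adjusted p = 9.76e-04), while hht2 rose. Next to hta2, mce1 fell by 1.12 in the xap5 deletion (deposited adjusted p = 5.86e-18) and, where both genes were lost, fell by 1.21 (adjusted p = 3.65e-21), and rsd1 on the other side rose by 0.38 and 0.45 in these strains (adjusted p-values 0.00844 and 8.48e-04). The gene between them, hta2, had deposited log2 folds of 0.05 and 0.11 there. The gene SPCC622.07 next to hta1 was called in no strain (−0.17, −0.21 and −0.23 in the deposited table). Before cnp1, spc1 fell by 0.46 in the xap5 deletion (deposited adjusted p = 0.00143) and, with both genes lost, fell by 0.51 (adjusted p = 1.89e-04). Its value in the pht1 deletion was 0.16 (adjusted p = 0.348).

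Within 2000 bases of the 10 genes the authors' intergenic table has 12 regions, of which 1 was higher in the xap5 deletion, none with pht1 deleted and 2 with both deleted, with none lower. Among all regions of that table, 2.65%, 1.65% and 15.0% were higher in these strains, and 0.686%, 0.196% and 1.63% were lower. At an adjusted p under 0.01 none was higher with xap5 or pht1 deleted and 1 in the double deletion, against 1.47%, 0.670% and 9.07% of all regions. The median deposited log2 fold over all regions was 0.10, 0.22 and 0.43. The regions that were called lie at the loci hht1-hhf1 and hta1-htb1. That between hhf1 and hht1 (146 bases, chromosome I 4699545 to 4699690, in the coordinates of the deposited table) had deposited log2 folds of 1.41 in the xap5 deletion (adjusted p = 0.0259), 1.30 in the pht1 deletion (adjusted p = 0.062) and 1.21 in the double deletion (adjusted p = 0.0308). It takes in part of the annotated start of hhf1 in the reference, and no rise of hhf1 or hht1 was called in the sense table. The other, a stretch of 22 bases at the start of htb1 (chromosome III 1412365 to 1412386), had a deposited log2 fold of 2.63 in the double deletion (adjusted p = 0.00669); the single deletions of xap5 and pht1 had 1.03 and 0.99 (adjusted p-values 0.663 and 0.625). It is shorter than a read and lies inside the reference transcript of htb1. The strand of the intergenic values is not stated in the sources used here.

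The regulators of histone genes passed the threshold in few cases, ams2 being called in every strain. This gene of the GATA-type activator rose by a deposited log2 fold of 1.21 in the xap5 deletion, 0.45 in the pht1 deletion (adjusted p = 0.046) and 0.63 in the double deletion. Of the 8 listed regulators 1 rose and none fell in the xap5 deletion, 1 rose and 1 fell in the pht1 deletion, and 2 rose and none fell in the double deletion. Of all sense entries, 21.1% were higher and 20.6% lower in the xap5 deletion, 13.5% and 11.1% in the pht1 deletion, and 30.5% and 34.3% in the double deletion, so these counts of regulators stand near or below the background. The gene that fell was hip3 of the HIRA complex (−0.33, adjusted p = 0.029), and the second that rose in the double deletion was teb1 (0.42). The list medians were 0.05, 0.01 and −0.08, beside −0.01, −0.02 and −0.05 for all sense entries.

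Genes of histone chaperones and assembly factors went down where they were called. Of 13, none rose in any strain, and 6 fell in the xap5 deletion, 3 with pht1 deleted and 9 with both deleted. In these strains 21.1%, 13.5% and 30.5% of all sense entries were higher and 20.6%, 11.1% and 34.3% lower. At an adjusted p under 0.01 the count with pht1 deleted was 1. The list medians were −0.29, −0.19 and −0.42. In the xap5 deletion nap1, an H2A-H2B chaperone gene, had a deposited log2 fold of −0.72, the PCNA gene pcn1 −0.39, the histone acetyltransferase gene hat1 −0.38 and chz1, whose budding yeast counterpart binds H2A.Z-H2B, −0.38. In the pht1 deletion the deposited values were −0.66 for pcf3 of CAF-1, −0.39 for spt6 and −0.36 for nap1. The double deletion had nap1 at −0.98, pcf3 at −0.87, chz1 at −0.81 and pcn1 at −0.71 in the deposited table. In the xap5 deletion the 4 histone genes that were called were thus higher and the 6 chaperone and assembly genes that were called were lower.

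Of 18 genes for CENP-A loading and the inner centromere, 2 rose and 1 fell in the xap5 deletion, none rose and 2 fell in the pht1 deletion, and 2 rose and 5 fell in the double deletion. Over all sense entries 21.1% were higher and 20.6% lower in the xap5 deletion, 13.5% and 11.1% in the pht1 deletion, and 30.5% and 34.3% in the double deletion, so the counts of this list stand at or below the background. The list medians were 0.12, −0.08 and −0.01. The CENP-A chaperone gene scm3 had deposited log2 folds of 0.65 in the xap5 deletion and 0.72 in the double deletion. The CENP-C gene cnp3 rose by 0.72 in the xap5 deletion and fell by 0.35 in the pht1 deletion and by 1.19 in the double deletion, by the deposited values. The kinetochore gene mis14 fell by 0.78 in the pht1 deletion and by 1.20 in the double deletion, sim3 fell by 0.32 in the xap5 deletion, and mis16 fell by 0.48 in the double deletion. Along with cnp1, cnp3 and mis14 thus fell in the double deletion, while scm3 rose.

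The list of S phase genes of the MBF factor also holds genes of the factor itself, such as cdc10, res1 and res2. Its S phase targets start their transcription before most histone genes. Of the 20 listed genes, 14 rose in the xap5 deletion and 1 fell (list median 0.79). Of all sense entries 21.1% were higher and 20.6% lower there. In the pht1 deletion 3 rose and none fell (median 0.22), near the 13.5% higher over all entries, and in the double deletion 11 rose and 2 fell (median 0.44), against 30.5% higher and 34.3% lower. Deposited log2 folds in the xap5 deletion were 2.32 for cdm1, 2.00 for the replication licensing gene cdt1, 1.99 for mik1 and 1.73 for cdc18. With pht1 deleted, cdt2 had 1.03, res2 0.50 and nrm1 0.37, and in the double deletion cdm1 had 1.86, mik1 1.16, ctp1 1.11 and cdt2 1.06. The deposited folds of cdm1, cdt1, mik1 and cdc18, named for the largest rises in the xap5 deletion, were lower in the double deletion. Such a choice favours a lower second value. Over the whole list of 20 genes, only cdc10 (0.49 and 0.50), res2 (0.35 and 0.44) and suc22 (−0.37 and −0.25) had higher folds in the double deletion. All other listed genes had lower ones, and the list median was 0.79 in the xap5 deletion and 0.44 in the double deletion. Among the histone genes, hht1, hhf1, hta1 and cnp1 had lower folds there, and hht2, hht3, hhf3, hhf2 and hta2 higher ones. For htb1 the values of 0.70 and 0.66 differed by less than the standard error of 0.14 implied for each. The part of S phase in the histone folds was not tested.

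**Figure D4:**
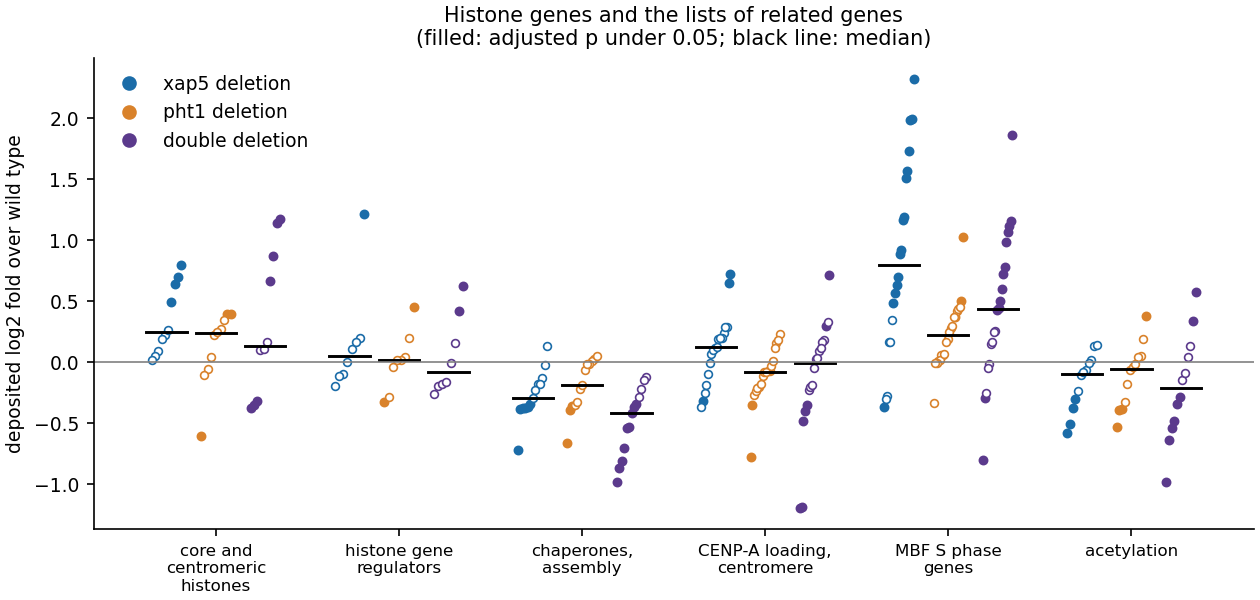
Deposited log2 folds over wild type (vertical axis) of the histone genes and of 5 lists of related genes, one point per gene and strain, filled where the adjusted p is under 0.05, with the median as a black line. The MBF genes have the highest median of the 6 groups in the xap5 deletion (0.79) and the double deletion (0.44), and no chaperone or assembly gene is called higher.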

How the data were processed

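RNA of 13 libraries in 4 genotypes was compared by the authors, and their tables hold 1 log2 fold, p-value and adjusted p-value per feature for each deletion over wild type. Per the file headers the folds are named logFC; base 2 was assumed, because edgeR reports folds in base 2 and is listed, beside BWA 0.5.8c, per the submitters' processing notes. Per the file headers the annotation is Ensembl EF2.12. The scaling of the libraries is not stated in the sources used here. Some deposited p-values exceed 1 (55 for sense and 6 for antisense entries), and these columns were treated as a score; no histone gene has such a value.

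No count per library was used here, so no test between libraries was run, and the depth behind a single gene is unknown. A feature was called at a deposited adjusted p under 0.05. The design planned a count test for the case that counts per library were found. Approximate 95% intervals took the standard error that gives the deposited p-value for the deposited fold under a normal distribution. It was 0.12 to 0.19 for the sense values, and the step was checked on simulated data. Positions and sequences came from RefSeq ASM294v3. All 10 genes have their identifier there, 1563 of the 6121 intergenic regions start right after a reference gene and 1604 end right before one. Python 3.11.15, pandas 2.3.3, scipy 1.17.1 and Biopython 1.88 were used. All 10 genes and their nearest protein-coding neighbours are named, with up to 4 called genes of each list per comparison. The genes and lists were chosen with earlier results of these data known. The long terminal repeat table was not used here.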

Additional observations from a re-analysis of the deposited data

How the results depend on the processing

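Recomputing Benjamini-Hochberg values over the sense table left all 30 calls of histone genes as they were. Centring folds on the table median kept the deposited adjusted p-values, so it could move a call only by turning a sign, and it turned none. In the double deletion the centred folds of hht1, hta1 and cnp1 were −0.27, −0.30 and −0.32. Whether these falls would still pass the threshold after centring was not tested. At an adjusted p under 0.01, 1 gene was higher in the pht1 deletion and 0 lower in the double deletion, and with a minimum of 1.5-fold these counts were 0 and 0; an unadjusted p under 0.01 (the header's threshold, added after seeing the data) also gave 0 lower in the double deletion. With htb1 and cnp1 only, 1 was higher in the xap5 deletion, 0 higher and 0 lower in the pht1 deletion, and 1 higher and 1 lower in the double deletion. The fewer genes account for these lower counts. At 0.01 the intergenic regions higher were 0 in the xap5 and 1 in the double deletion. At 0.01 the lists had, lower in the xap5 deletion, 0 centromere and 0 MBF genes; in the pht1 deletion 0 regulators higher and 0 lower, 1 chaperone and 1 centromere gene lower and 0 acetylation genes higher; in the double deletion 1 centromere and 1 acetylation gene higher and 1 MBF gene lower. Relative to the median of the antisense table (1.44 in the double deletion), antisense signal at htb1 was −0.36 in the double deletion; that table's features were chosen for a change. No paired analysis was possible because the tables hold no values per library, and for the same reason no replicate could be left out. Depth per gene is unknown.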

Other observations

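Of 12 genes for histone acetyltransferases and deacetylases, none rose and 4 fell in the xap5 deletion, 1 rose and 3 fell in the pht1 deletion, and 2 rose and 6 fell in the double deletion. Over all sense entries 21.1% were higher and 20.6% lower in the xap5 deletion, 13.5% and 11.1% in the pht1 deletion, and 30.5% and 34.3% in the double deletion. The list medians were −0.10, −0.05 and −0.22. The genes hat1 and rtt109 of this list are also counted among the chaperone and assembly genes. The class I deacetylase gene clr6 fell in all 3 strains, with deposited log2 folds of −0.58, −0.53 and −0.98. The Elongator gene elp3 fell by 0.51 in the xap5 deletion and by 0.64 in the double deletion. The acetyltransferase gene mst2 rose by a deposited log2 fold of 0.57 in the double deletion and mst1 by 0.37 in the pht1 deletion, where the deacetylase genes clr3 and hst4 fell by 0.39 and 0.38.

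The double copy of AACCCT lies before 11 protein-coding genes besides the histone genes. By the deposited adjusted p-values 6 of them rose and 2 fell in the xap5 deletion, 2 rose and none fell in the pht1 deletion, and 5 rose and 2 fell in the double deletion, beside the same shares of all sense entries as above. The Hsp70 genes ssa2 and ssa1 (3.57 and 2.24), hsp90 (2.72), tbp1 of the TATA-binding protein (0.88) and bdf2 (0.67) had the highest deposited log2 folds among them in the xap5 deletion. Those that fell in that strain were eft201 (−0.47) and spi1 (−0.35). The median of the 11 genes was 0.31, −0.02 and 0.15 for the loss of xap5, of pht1 and of both, beside −0.01, −0.02 and −0.05 for all sense entries. These genes were looked up after the histone promoters had been read, and no test was made of the motif against the folds.

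The entries whose 3 deposited log2 folds were nearest to the median profile of the 6 H3-H4 genes (0.36, 0.19 and 0.52 for the loss of xap5, of pht1 and of both) were snf30, ump1 and mks1, at Euclidean distances of 0.05, 0.05 and 0.06 over the 3 comparisons. Nearest to hta1 were thi5 (0.07), SPCC645.12c (0.12) and pgi1 (0.12).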
